A study of Homo sapiens with 16 samples.

Results

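Tissue factor and the plasminogen activators were followed through 6 h of retinoid treatment in ME180 cells. The 8 genes were chosen by name, with earlier results of these data known: F3, THBD, TFPI, PLAU, PLAUR, PLAT, SERPINE2 and SERPINB2. Of these, 7 had a named probe, 12 probes in all of the 47230 on the array. SERPINB2, an inhibitor of urokinase, had no probe listed under its symbol and is not analysed here. ME180 is an established human line of cervical epidermoid carcinoma, grown from an omental metastasis. Cells were given 10 µM all-trans retinoic acid (ATRA), the vitamin A metabolite that binds nuclear retinoic acid receptors, for 1, 3 or 6 h, or the DMSO vehicle. There were 4 arrays in each of the 4 groups, all grown with fetal bovine serum, and the DMSO arrays carry no treatment time. Values are the deposited log2 intensities, which had nearly equal distributions in all arrays, and each fold below takes the logarithm as base 2. The labels do not tell separate cultures from repeat arrays, so each p-value reflects array-to-array spread, which may be technical.

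The F3 product, tissue factor, is the membrane receptor for coagulation factor VII, and the complex of the pair starts the clotting cascade. TFPI encodes a secreted inhibitor of that complex, and THBD encodes thrombomodulin, which turns thrombin towards activation of protein C. PLAU (urokinase) and PLAT (tissue-type activator) encode proteases that cleave plasminogen to plasmin. PLAUR encodes the receptor that holds urokinase at the cell surface, and SERPINE2 encodes protease nexin-1, a serpin that inhibits thrombin and urokinase. In carcinoma cells tissue factor is also known as a signalling receptor, and urokinase with its receptor as a system of pericellular proteolysis. Retinoids are known to change several of these genes in endothelial and leukaemia cells.

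The upstream sequences of 3 of these genes are shown because F3 passed the test below, PLAUR did not pass it but had separate groups at 1 h, and PLAU overlapped DMSO at every time. Each is the 250 bases before a start listed for the gene in the RefSeq promoter table on GRCh38.p14, read 5′ to 3′ on the gene's strand. For PLAU this is the second of its listed starts, both of which lie inside the gene's annotated range. Capitals mark matches to an AP-1 motif (TGANTCA), a kappaB-type motif (GGNNTTTCC) and a TATA motif (TATAAA). Both strands were searched, also for a cAMP response element (TGACGTCA) and a retinoid receptor half-site (AGGTCA), and these 3 windows contained neither sequence. Only that exact half-site sequence was searched, so other forms of a retinoid receptor site were not looked for.
F3, chr1:94541760-94542009, minus strand: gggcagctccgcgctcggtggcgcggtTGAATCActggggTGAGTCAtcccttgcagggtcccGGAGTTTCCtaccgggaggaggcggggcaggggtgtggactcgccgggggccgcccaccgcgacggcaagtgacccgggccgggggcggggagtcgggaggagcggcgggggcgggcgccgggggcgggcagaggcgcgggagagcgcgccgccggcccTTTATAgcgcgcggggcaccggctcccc
PLAUR, chr19:43670170-43670419, minus strand: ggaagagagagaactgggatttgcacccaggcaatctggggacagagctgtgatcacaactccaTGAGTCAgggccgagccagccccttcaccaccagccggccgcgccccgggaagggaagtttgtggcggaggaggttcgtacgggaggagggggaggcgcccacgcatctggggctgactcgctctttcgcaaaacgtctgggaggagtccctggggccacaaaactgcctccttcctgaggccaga
PLAU, chr10:73910882-73911131, plus strand: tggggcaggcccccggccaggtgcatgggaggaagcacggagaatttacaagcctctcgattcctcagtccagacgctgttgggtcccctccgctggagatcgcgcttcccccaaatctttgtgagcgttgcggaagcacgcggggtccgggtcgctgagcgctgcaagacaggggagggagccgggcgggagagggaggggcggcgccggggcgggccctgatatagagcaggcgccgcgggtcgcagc
The F3 window held AP-1 matches at 2 positions, 223 and 210 bases before the start, and a kappaB-type match, GGAGTTTCC, 187 bases before it. Its TATA match lay on the opposite strand, 28 bases before the start. The PLAUR window held 1 AP-1 match, 186 bases before the start, and this PLAU window held none of the 5. The other listed PLAU start held none either. The AGGTCA motif, present in 12.1% of all windows, occurred in the windows of TFPI, SERPINB2 and 1 of the SERPINE2 starts, none of them printed. SERPINB2 also held 1 AP-1 match. No window of THBD or PLAT was searched, so the search covered 6 of the 8 members. Among all 35116 RefSeq promoter windows of this length, 6.57% held an AP-1 match, 0.402% held it at 2 or more positions, 5.48% held the kappaB-type motif and 10.7% the TATA motif. Both AP-1 and kappaB-type matches stood in 0.39%. The GC box (GGGCGG, not capitalised) was found at 4 positions in the F3 window, 3 in the PLAU window and 0 in the PLAUR window, and in 42.6% of all windows. The EGR motif (GCGNGGGCG, not capitalised) occurred once each in the F3 window, where it overlaps a GC box, and the PLAUR window, and in 8.41% of all. These are letter matches and not shown to be binding sites, and sequence beyond these 250 bases was not searched.

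The cells carried epithelial markers. Of 10 genes listed for squamous epithelium, the 7 with a probe were at or above 8.32 in every array. These were KRT5, KRT14, DSG3, SFN, PERP, CDH1 and EPCAM, of which CDH1 and EPCAM are not particular to squamous cells. The others listed, KRT6A, KRT17 and TP63, had no probe under their symbol. The endothelial markers PECAM1, KDR, TEK and CLDN5 stayed below 6 in every array, as did the leukocyte markers PTPRC, CSF1R and ITGAM, the fibroblast markers COL1A2, COL3A1, LUM and PDGFRB, and the platelet markers PF4, GP9 and ITGA2B. The other markers of these lists reached 6 in at least 1 array. They are VWF and CDH5 of the endothelial list (highest value 8.29), CD14, LYZ and CD68 of the monocyte and macrophage list (8.52), COL1A1 and DCN of the fibroblast list (7.18) and PPBP of the platelet list (6.55), and CD68 was at or above 6 in every array. A value of 6 was used as the lower limit of a usable signal, and a gene entered the test if at least 4 of the 16 arrays reached it. The arrays numbered replicate 1 stood apart: 77.6% of their deposited rows were displaced by 1 row and were moved back, and 52.9% of genes then still differed between these arrays and the rest. Both F3 probes lie before the displaced rows, so their values are as deposited; every other member's probes lie within them. Values without the replicate 1 arrays are therefore given beside the members' comparisons with DMSO.

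F3 was the member that rose. Its log2 intensity in DMSO was 8.56, 6.07, 5.93 and 8.32 in replicates 1 to 4. At 1 h it was 10.36, 10.61, 10.68 and 10.09, at 3 h 10.91, 10.22, 10.25 and 10.89, and at 6 h 9.94, 9.13, 8.43 and 10.01. Every 1 h and 3 h array lay above every DMSO array, and at 6 h only replicate 3 fell within the DMSO range. The DMSO arrays were themselves split, replicates 1 and 4 lying above replicates 2 and 3 by over 2 units on the log2 scale. DMSO replicates 2 and 3 lay close to the lower limit of 6, so a fold over DMSO is a rough figure.

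At 1 h F3 averaged 10.43 ± 0.27 against 7.22 ± 1.41 in DMSO (SD, n = 4 each), a 9.26-fold rise (log2 difference 3.21, SE 0.54, limma adjusted p = 0.00729). At 3 h it averaged 10.57 ± 0.39, a 10.2-fold rise over the same DMSO arrays (log2 difference 3.34, SE 0.54, limma adjusted p = 0.011). These are the 16th largest rise at 1 h and the 8th at 3 h among 12467 genes and probes. The 95% interval of the fold ran from 4.2 to 20.5 at 1 h and from 4.6 to 22.4 at 3 h, so the size of the rise is loosely set. At 6 h F3 averaged 9.38 ± 0.75, with a log2 fold change of 2.15 (SE 0.54, 95% interval 1.01 to 3.3) that did not pass (limma adjusted p = 0.71). The F3 rise at 6 h was still the 5th largest among the 12467, of which 0 passed at that time. Without the replicate 1 arrays the 6 h value was 2.42 (adjusted p = 0.427). The 3 comparisons share the DMSO arrays and are not independent. In RNA from whole cultures, more cells expressing F3 and more F3 RNA per cell cannot be told apart.

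The 1 h call held whichever array was left out (highest limma adjusted p = 0.0351), and both calls held without the replicate 1 arrays. There the log2 fold change was 3.68 at 1 h and 3.68 at 3 h (adjusted p = 0.0123 and 0.0225), while within the replicate 1 arrays, 1 array against 1, the difference was 1.8 and 2.35. When array set (replicate 1 or not) entered the model, the adjusted p was 0.00237 at 1 h and 0.003 at 3 h. The 3 h call was lost without DMSO replicate 2 (adjusted p = 0.0534) or 3 h replicate 4 (0.0502). With only the arrays of the compared groups in the fit, the adjusted p was 0.0694 at 1 h and 0.0561 at 3 h, and with the displaced rows of other genes left as deposited it was 0.0804 and 0.108. The mean of the 6 endothelial markers, 4 of them below 6 in every array, was 4.79 to 5 in DMSO, 4.77 to 5.12 at 1 h, 5.03 to 5.68 at 3 h and 4.78 to 5.58 at 6 h. That of the 6 monocyte markers was 5.15 to 5.29, 5.16 to 5.5, 5.26 to 5.75 and 5.18 to 5.85 in the same order. Their part in the F3 result was not tested.

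**Figure D1:**
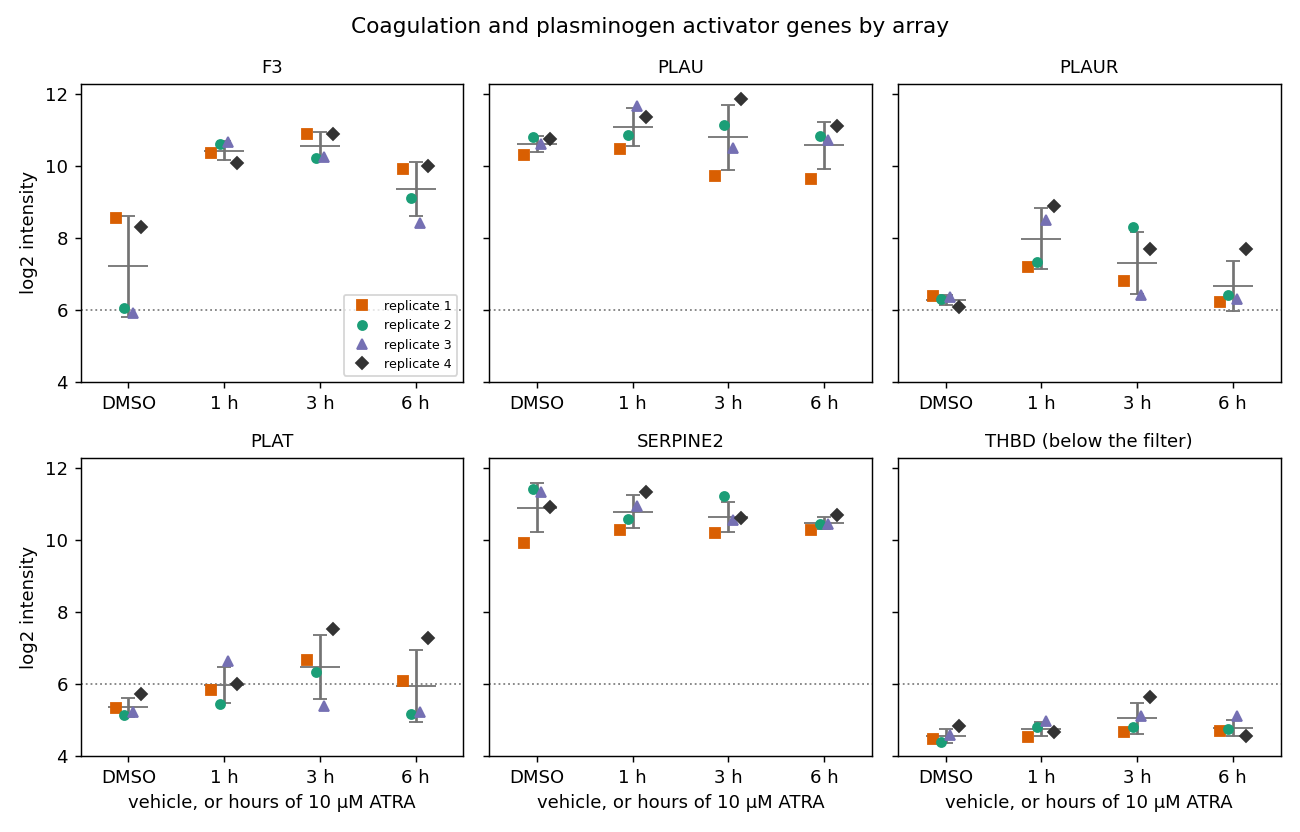
Log2 intensity of 6 genes (vertical axis) in DMSO and after 1, 3 and 6 h of 10 µM ATRA (horizontal axis), with 1 symbol per array, the group mean as a bar and the SD as whiskers (n = 4), and a dotted line at 6. F3 lies at 10.09 or above in every 1 h and 3 h array, against 8.56 or below in DMSO, while the THBD arrays all stay under the dotted line.

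F3 was at like levels at 3 h and 1 h. The difference of 3 h minus 1 h was 0.13 on the log2 scale (95% interval -1.01 to 1.28, limma adjusted p = 1), within the spread of either group. From 3 to 6 h the level was lower in all 4 arrays of the later group, 8.43 to 10.01 at 6 h against 10.22 to 10.91 at 3 h. That difference was -1.19 (SE 0.54, 95% interval -2.33 to -0.05) and did not pass (limma adjusted p = 1); 0.57% of all genes had 6 h arrays wholly below their 3 h arrays. In order of mean level F3 ran 3 h, 1 h, 6 h and DMSO, and neither 3 h and 1 h nor 6 h and DMSO differed past the threshold; 6 h was not tested against 1 h.

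A second F3 probe, ILMN_2129572, gave the same order. It read 7.12, 5.1, 4.63 and 6.57 in DMSO, then 8.65, 8.05, 8.6 and 8.07 at 1 h, 9.07, 8.76, 8.28 and 8.97 at 3 h and 8.74, 7.13, 6.73 and 7.91 at 6 h. The DMSO split appeared in this probe too, with replicates 2 and 3 below 6, so its fold is a rough figure. Fitted beside all 15271 passing probes, it rose 5.6-fold at 1 h and 7.54-fold at 3 h (log2 fold changes 2.49 and 2.92, SE 0.5, limma adjusted p = 0.0347 and 0.0165). At 6 h its log2 fold change was 1.77 (limma adjusted p = 0.864). The call with the first probe, ILMN_1797009, in the same fit had an adjusted p of 0.00769 at 1 h and 0.0105 at 3 h.

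F3 was the 1 of 5 members tested at 1 h that passed, where 0.57% of all 12467 genes and probes passed in either direction. It was also the 1 that passed at 3 h, where 0.521% of all did. Because the members were chosen with earlier results of these data known, these counts are no test of enrichment. At an unadjusted p under 0.05, 2 members passed at 1 h (3.85% of all) and 3 at 3 h (7.64%). At 6 h limma called 0 members and 0% of all genes, while 1 member and 4.4% of all genes had an unadjusted p under 0.05. F3 and PLAUR had groups that did not overlap, higher at both 1 h and 3 h, as did 1.68% of all genes at 1 h and 3.02% at 3 h. At 6 h none of the 5 members was wholly above DMSO, against 1.03% of all genes. Between 3 h and 1 h limma called 0 members, with 0 at an unadjusted p under 0.05, against 0.184% of all genes called and 4.8% at the unadjusted p. Between 6 h and 3 h limma called 0 members and 0% of all genes, with 1 member, F3, and 3.4% of all genes at an unadjusted p under 0.05.

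PLAUR, the urokinase receptor, was higher in all 1 h arrays without passing the test. The probe used, ILMN_2374340, read 6.4, 6.3, 6.38 and 6.1 in DMSO, 7.2, 7.35, 8.52 and 8.89 at 1 h, 6.82, 8.32, 6.43 and 7.69 at 3 h and 6.23, 6.43, 6.3 and 7.71 at 6 h. The DMSO arrays were close together, and the arrays at 1 h were spread out above them. The 1 h mean was 7.99 ± 0.84 against 6.29 ± 0.14 in DMSO (SD, n = 4 each), a log2 fold change of 1.7 (SE 0.45, 95% interval 0.73 to 2.66, limma adjusted p = 0.203). With array weights, which give less weight to more variable arrays, the adjusted p was 0.0197, and over the other 11 settings of the fit, single arrays left out aside, it ran from 0.0828 to 1. At 3 h the log2 fold change was 1.02 (SE 0.45, adjusted p = 0.576), and at 6 h it was 0.37 (SE 0.45, adjusted p = 1). Without the replicate 1 arrays the values were 1.99, 1.22 and 0.55 at 1, 3 and 6 h (adjusted p = 0.213, 0.386 and 0.824), and within them 0.8, 0.41 and -0.17. The lowest 3 h array, replicate 3 at 6.43, stood just above the highest DMSO array, replicate 1 at 6.4.

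The PLAUR probes did not all move alike. ILMN_2408543, annotated to another RefSeq transcript of the gene, read 6.08, 6.61, 7.87 and 8.29 at 1 h, against 5.45, 5.1, 5.29 and 5.51 in DMSO. All DMSO arrays were below 6. With DMSO put at 6, the 1 h mean was 2.32-fold higher, which is not a confidence limit. The fitted log2 fold change was 1.87 (95% interval 0.99 to 2.76, limma adjusted p = 0.0697, not passing). At 3 h this probe read 5.72, 6.68, 5.54 and 6.33. ILMN_1691508 read 5.76, 5.85, 5.84 and 6.17 at 1 h, against 6.39, 5.36, 5.09 and 5.86 in DMSO, with overlapping groups and a log2 fold change of 0.23 (95% interval -0.48 to 0.94). In ATRA 6 h replicate 4 this probe reached 7.12, its highest value. The other 6 h arrays read 6.06, 5.68 and 5.5. ILMN_2374340 and ILMN_1691508 are annotated to the same RefSeq transcript, and their log2 fold changes at 3 h were 1.02 and 0.48.

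**Figure D2:**
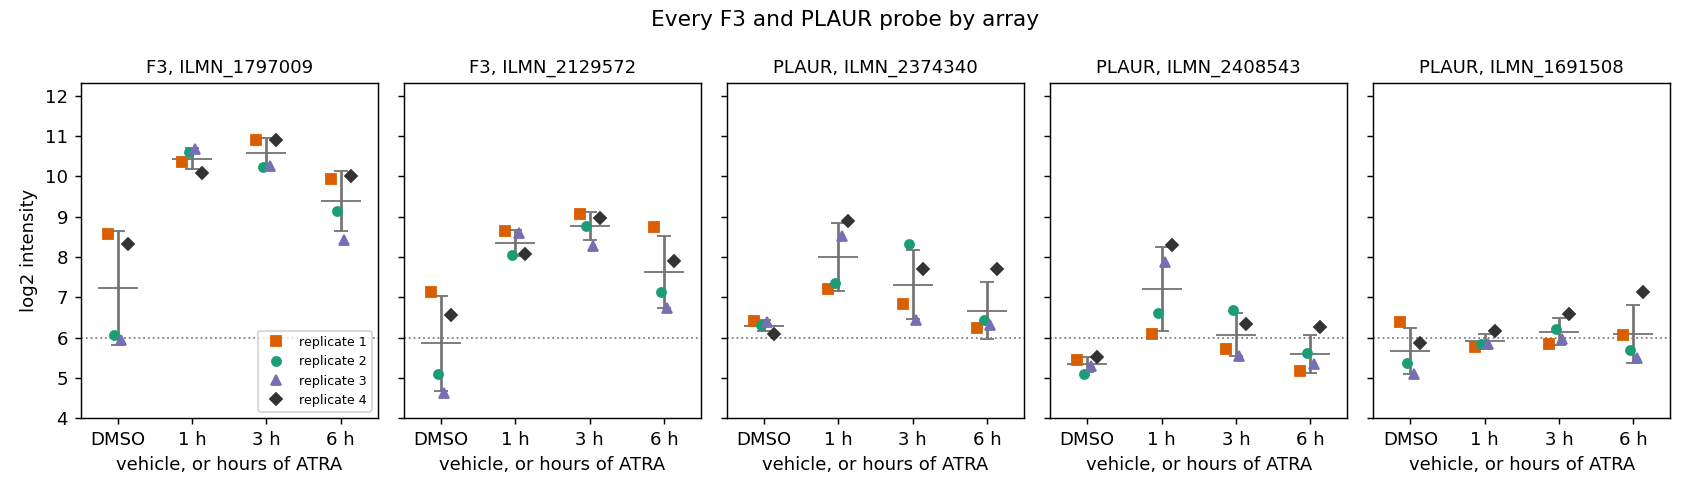
Log2 intensity (vertical axis) of the 2 F3 probes and the 3 PLAUR probes by group (horizontal axis), with 1 symbol per array, the mean as a bar and the SD as whiskers (n = 4), and a dotted line at 6. Both F3 probes show DMSO replicates 2 and 3 below replicates 1 and 4, and PLAUR probe ILMN_1691508 stays between 5.09 and 7.12 while the other PLAUR probes reach 8.89 and 8.29.

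PLAU, the gene of urokinase itself, was bright in every array and did not pass at any time. It read 10.32, 10.82, 10.61 and 10.76 in DMSO, 10.47, 10.86, 11.68 and 11.36 at 1 h, 9.74, 11.15, 10.5 and 11.86 at 3 h and 9.65, 10.84, 10.73 and 11.13 at 6 h. The groups overlapped at each time. The log2 fold changes were 0.47 at 1 h (95% interval -0.41 to 1.34), 0.19 at 3 h (-0.69 to 1.06) and -0.04 at 6 h (-0.91 to 0.83). The replicate 1 arrays were lower than the others at PLAU by 0.98 on the log2 scale (10.05 against 11.02, limma adjusted p = 0.00152). Without them the log2 fold changes were 0.57 at 1 h, 0.44 at 3 h and 0.17 at 6 h, none passing (adjusted p = 1, 0.671 and 0.919).

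PLAT, the gene of the tissue-type activator, was near the lower limit of the signal. It read 5.33, 5.16, 5.22 and 5.73 in DMSO, 5.84, 5.45, 6.65 and 6.01 at 1 h, 6.67, 6.34, 5.4 and 7.53 at 3 h and 6.09, 5.17, 5.22 and 7.3 at 6 h. All 4 DMSO arrays were below 6, and 3 of the 3 h arrays were above it. The 3 h mean was 6.48 ± 0.88 against 5.36 ± 0.26 in DMSO (SD, n = 4 each), and it did not pass (limma adjusted p = 0.517). With DMSO put at 6, the 3 h mean was 1.4-fold higher, which is not a confidence limit. The groups overlapped, with 3 h replicate 3 at 5.4 below DMSO replicate 4 at 5.73. The 95% interval of the log2 fold change at 3 h ran from 0.12 to 2.12. The adjusted p was 1 at both 1 h and 6 h, and the log2 fold changes were 0.63, 1.12 and 0.58 at 1, 3 and 6 h. Without the replicate 1 arrays they were 0.67, 1.05 and 0.53 (adjusted p = 1, 0.58 and 0.867). Replicate 4 was the highest array at 3 h and at 6 h, and at 6 h replicate 4 was the highest array of PLAUR as well.

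SERPINE2 was bright and did not pass. It read 9.94, 11.42, 11.35 and 10.92 in DMSO, 10.3, 10.59, 10.95 and 11.35 at 1 h, 10.21, 11.23, 10.57 and 10.62 at 3 h and 10.3, 10.47, 10.46 and 10.7 at 6 h. Its log2 fold changes were -0.11, -0.25 and -0.43 at 1, 3 and 6 h (SE 0.31, adjusted p = 1, 0.999 and 1). The replicate 1 arrays were lower by 0.7 on the log2 scale (10.19 against 10.89, limma adjusted p = 0.00392). Without them the log2 fold changes were -0.27, -0.42 and -0.69 at 1, 3 and 6 h (SE 0.24, adjusted p = 1, 0.566 and 0.508), whereas within the replicate 1 arrays the differences were 0.36, 0.27 and 0.36.

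The remaining measured members, THBD and TFPI, were below 6 in every array and were not tested. THBD read 4.4 to 4.84 in DMSO, 4.54 to 4.99 at 1 h, 4.67 to 5.64 at 3 h and 4.57 to 5.11 at 6 h. The 3 TFPI probes lay between 4.29 and 4.85 over all 16 arrays. Neither gene had a level that these arrays could measure, so no fold is given, and a change within the dim range was not detectable.

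**Figure D3:**
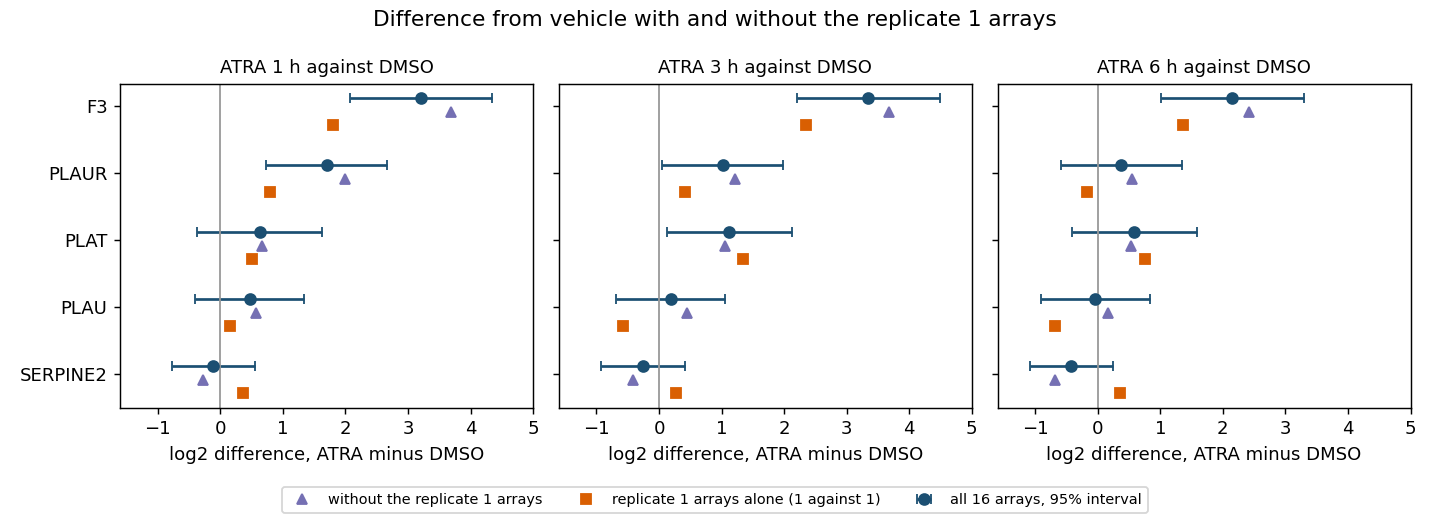
Log2 difference between ATRA and DMSO (horizontal axis) of the 5 tested members (vertical axis) at 1, 3 and 6 h, as circles with 95% intervals over all 16 arrays, triangles without the replicate 1 arrays and squares within the replicate 1 arrays alone. F3 lies right of 0 in each of the 3 readings at each time (1.8 to 3.68 at 1 h), while PLAU at 3 and 6 h, PLAUR at 6 h and SERPINE2 at every time have readings on both sides of 0.

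Beyond the 8 genes, a wider coagulation list and a list of plasminogen and pericellular proteolysis genes were counted in the same fit. Of 34 coagulation genes, 33 had a probe and 10 entered the test. Of these, limma called 0 at 1, 3 or 6 h, and 0 had an unadjusted p under 0.05 against DMSO. Their median log2 fold change was -0.09, 0.01 and 0.05 at 1, 3 and 6 h, beside -0.03, -0.04 and -0.01 over all genes. Of 41 plasminogen and proteolysis genes, 38 had a probe and 23 were tested, with 0 called at each time and 0, 2 and 1 at an unadjusted p under 0.05. Their medians were 0.04, 0.09 and 0.13. Over all genes, limma called 0.57%, 0.521% and 0% at 1, 3 and 6 h, and 3.85%, 7.64% and 4.4% had an unadjusted p under 0.05.

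The following list genes were singled out after their values were seen. F2R, the thrombin receptor PAR1, averaged 14.03 ± 0.18 at 3 h against 14 ± 0.1 in DMSO (SD, n = 4 each), a difference of 0.03. PROCR, the endothelial protein C receptor, averaged 8.37 ± 0.32 at 3 h against 8.38 ± 0.35 in DMSO. TIMP3, a matrix-bound inhibitor of metalloproteinases, averaged 9 ± 1.06 at 1 h and 8.86 ± 0.77 at 3 h against 7.85 ± 0.69 in DMSO, with log2 fold changes of 1.16 and 1.02 (SE 0.55, limma adjusted p = 1 and 0.805). With the replicate 1 arrays as a block, TIMP3 passed at both times (adjusted p = 0.0393 and 0.0413), and without these arrays it did not (0.0905 and 0.139). The kallikrein KLK6, a secreted serine protease, averaged 9.29 ± 0.55 at 3 h against 8.07 ± 0.65 in DMSO, a log2 difference of 1.22 (SE 0.54, adjusted p = 0.575). KLK10, of the same family, had every 3 h array above its DMSO arrays, at 11.6 ± 0.28 against 11.1 ± 0.24, without passing (log2 fold change 0.51, SE 0.22, adjusted p = 0.559). It was the 1 gene of 23 tested on its list so placed at 3 h, beside 3.02% of all genes.

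**Figure D4:**
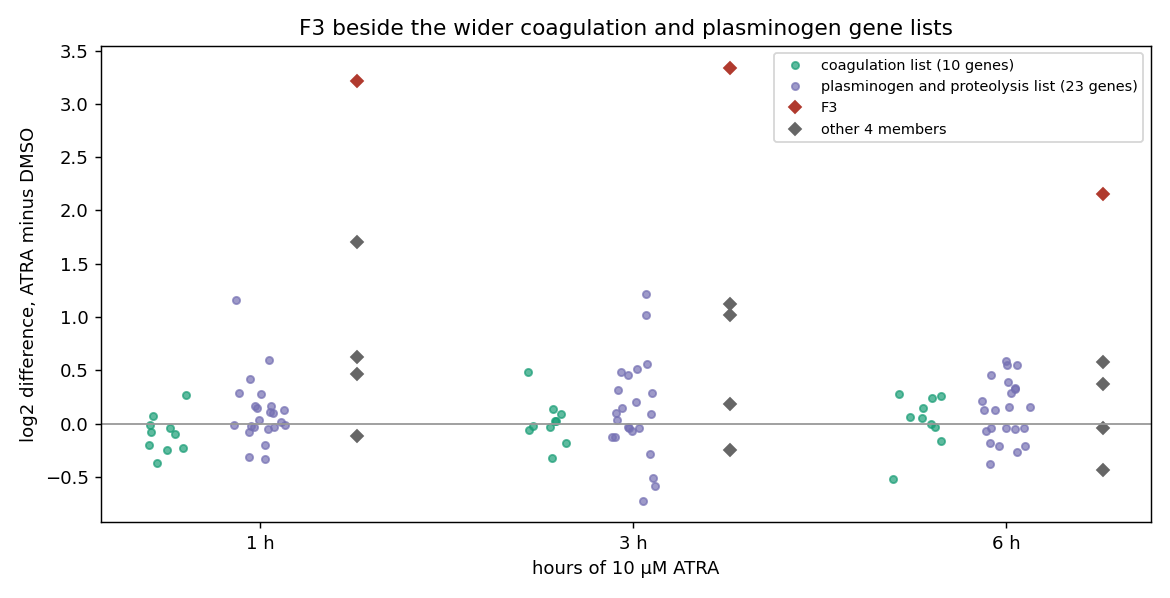
Log2 difference between ATRA and DMSO (vertical axis) at 1, 3 and 6 h (horizontal axis), with 1 point per gene for the 10 coagulation genes, the 23 plasminogen and proteolysis genes, F3 and the other 4 tested members. F3 lies at 3.21, 3.34 and 2.15, while the coagulation genes lie between -0.52 and 0.49 and the plasminogen and proteolysis genes between -0.72 and 1.22 over the 3 times.

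The genes whose time course came nearest to that of F3 were looked up by the root mean square difference of the 3 log2 fold changes against DMSO, among 9650 other genes with a symbol. The nearest was FOSL1, which encodes a Fos-family partner in AP-1, at a difference of 0.45 on the log2 scale. Its log2 fold changes were 3.16, 3.13 and 1.4 at 1, 3 and 6 h, passing at 1 h and 3 h (limma adjusted p = 0.0104 and 0.021). IL1B, an inflammatory cytokine, followed at 0.49, with log2 fold changes of 3.29, 4.08 and 1.73 and adjusted p of 0.14 at 1 h and 0.0408 at 3 h. CXCL8, a neutrophil chemokine, came next at 0.55, with 3.32, 3.86 and 1.36, and passed at neither time (adjusted p = 0.588 and 0.166). This ranking describes group means of 3 comparisons with common DMSO arrays and carries no test.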

How the data were processed

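Total RNA of 16 samples was labelled with biotin and read on Illumina bead arrays, per the labels' protocols. The authors deposited log2 intensities, 1 for each probe on each array. Limma is named in the submitters' processing notes without a version or role. Background correction and log base were not given in the sources used here, and base 2 was taken because the highest value is 14.7. Over the lower 99 percent of ranks, values of equal rank lay within 0.0181 of each other. The deposited non-normalized table has 32 value and detection columns whose names match no sample, so it gave only the row order. In that order the replicate 1 arrays were displaced from row 10569 of 47230, and were moved up by 1 row (correlation across probes with the other arrays after that row 0.325 as deposited, 0.979 moved).

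Symbols came from the platform annotation (30113 probes with 1 symbol, 8 with several, 17109 not listed; 0 symbols changed against RefSeq). Probes reaching 6 in at least 4 arrays were kept (15271), and the brightest probe stood for a gene, giving 12467 genes and probes. Groups were compared by limma (version 3.58.1, R version 4.3.3, lmFit, eBayes, all 16 arrays, 12 residual degrees of freedom, two-sided, Benjamini-Hochberg over all 12467, threshold 0.05). The fit was checked on simulated data with independent arrays, the same spread in every group and no replicate 1 difference. That check does not cover unequal spreads or the array set difference seen here. A group wholly below 6 was given its bound at 6. All members were described, with every probe; from the wider lists only passing genes were to be named, and the genes nearest to each passing member by fold change. The members and lists were chosen with earlier results of these data known. Alternatives were other filters, blocks, weights, scalings, probe rules, sample sets and leaving out each array. The number of arrays limits the precision.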

Additional observations from a re-analysis of the deposited data

Results flagged for a closer look

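PLAUR in ATRA 6 h replicate 4 stood far above the other 6 h arrays, at 7.71 against 6.23 to 6.43 (probe ILMN_2374340). The gap took up 0.866 of the range of the 4 arrays. It was the 1 such case among 32 groups of 4 arrays examined over the 8 passing probes, and chance alone marks about 1 group in 20. In the same array PLAT read 7.3, against 5.17 to 6.09 in the other 6 h arrays.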

How the results depend on the processing

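Across the alternatives other than leaving out arrays, F3 kept its direction against DMSO at all 3 times. Its log2 fold change stayed 3.21 at 1 h and 3.34 at 3 h but did not pass with the rows as deposited (adjusted p = 0.0804 and 0.108) or with only the compared groups in the fit (0.0694 and 0.0561). With array weights the 6 h value of 2.34 passed (0.0476). Leaving out 1 array gave 2.78 to 3.66 at 1 h, 2.92 to 3.79 at 3 h and 1.73 to 2.6 at 6 h. Members called numbered 0 at 1 h and 0 at 3 h in the deposited rows and in the 2-group fits, and with array weights 2 at 1 h and 1 at 6 h; leaving out 1 array gave 0 to 1 at 3 h. Of the wider lists, 1 gene passed at 1 h with array weights, and 1 at 1 h and 1 at 3 h with the array set as a block.

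Over all genes, 71 passed at 1 h, 65 at 3 h, 0 at 6 h, 23 between 3 h and 1 h and 0 between 6 h and 3 h. With the array set as a block there were 117, 384 and 82 at 1 h, 3 h and 3 h against 1 h. With array weights there were 216, 462, 86 (6 h), 46 (3 h against 1 h) and 1 (6 h against 3 h). With rows as deposited there were 13, 0 and 2. Without a filter 25 passed at 3 h, in the 2-group fit 8 passed between 3 h and 1 h, and without the replicate 1 arrays 1 passed between 6 h and 3 h. Leaving out 1 array gave 47 (without DMSO replicate 2) to 72 at 1 h, 15 to 84 at 3 h, 13 (without 1 h replicate 4) to 30 between 3 h and 1 h, and 0 to 2 (without 3 h replicate 3) between 6 h and 3 h. At 3 h, leaving out DMSO replicate 1 gave 28, DMSO replicate 2 gave 15, DMSO replicate 3 gave 19, 3 h replicate 2 gave 15 and 3 h replicate 4 gave 20. The causes were not tested.

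The replicate number as a block gave 117, 341 and 63 calls, with F3 at an adjusted p of 0.00175 at 1 h and 0.00371 at 3 h. The numbers were not treated as pairs in the main fit. Of 24 same-numbered pairs of arrays, 18 had deviations correlated above 0.1, and 6 of 16 arrays correlated best with their own number. The correlations were 0.794 to 0.9 among the replicate 1 arrays and -0.135 to 0.701 among same-numbered arrays of replicates 2 to 4. The block changed no call of a member.

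Differences that missed the threshold changed sign at F3 between 3 h and 1 h without the replicate 1 arrays (-0.01), at PLAU without those arrays at 6 h (0.17), in the deposited rows at 6 h (0.32) and between 3 h and 1 h (0.11), and at PLAUR between 3 h and 1 h in the deposited rows (0.04) and with probe ILMN_1691508 (0.25), a reading added after the data were seen. Leaving out 1 array gave PLAU -0.16 to 0.54 at 3 h, -0.22 to 0.27 at 6 h, -0.63 to 0.08 between 3 h and 1 h and -0.58 to 0.12 between 6 h and 3 h. It gave SERPINE2 -0.43 to 0.06 at 1 h, -0.33 to 0.04 between 3 h and 1 h and -0.32 to 0.01 between 6 h and 3 h. Background correction of the non-normalized table was not run, because its columns could not be assigned, and the labels give no slide or scan date. Signal close to the lower limit restricts PLAT, THBD, TFPI and the PLAUR probes ILMN_1691508 and ILMN_2408543. It also restricts F3 in DMSO replicates 2 and 3 (6.07 and 5.93 at the probe used).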
